A study of Mus musculus with 20 samples.

Results

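Voltage-gated calcium and sodium channel genes were followed across 20 arrays of mouse brain RNA in 4 groups of 5. The genes were taken by symbol, as all those whose name begins with Cacna, Cacnb, Cacng or Scn and goes on with a number. This gave 39 genes out of 20970 with a usable probe, 26 of them for calcium channel subunits and their relatives and 13 for sodium channel subunits. All mice were males on the C57BL/6J background with a Tet-binding protein under the GFAP promoter, which is active mainly in astrocytes, and all received doxycycline at 100 mg/kg once a day for 7 days. Tat− mice carried that construct alone, whereas Tat+ mice also carried the HIV-1 Tat gene behind a doxycycline-responsive promoter, so that astrocytes were the intended source of Tat. Over the same 7 days each mouse was injected with saline (0.9%, Sal) or methamphetamine (Meth, 2 mg/kg), which gave 2 groups without Tat (Tat−/Sal and Tat−/Meth) and 2 with it (Tat+/Sal and Tat+/Meth). The labels give an age of 6 to 7 weeks and the left hemisphere of the perfused brain. The design text of the series gives a harvest 24 h after the last injection. The methods give 3 to 5 months, the caudate putamen and, in all 4 groups, the saline groups included, a Meth challenge of 1 mg/kg after 7 days of abstinence, with harvest 1 h later. All 10 genes of a list of striatal projection neuron markers were well above background on all 20 arrays. Of 6 cerebellar genes, 3 were on all arrays, Calb2 on 3, and Gabra6 and Cbln3 on none. Of 7 cortical genes, 3 were well above background on all arrays.

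The layout of the slides bears on each result. Slide 1 held the 5 Tat−/Meth arrays and nothing else, slide 2 held the 5 Tat−/Sal arrays with 3 of Tat+/Meth, and slide 3 held the 5 Tat+/Sal arrays with the other 2 of Tat+/Meth. A difference between Tat−/Meth and any other group therefore cannot be told apart from a difference between slide 1 and the other slides. The bright control spots at the corners of the array read 14.67 to 15.06 log2 units on slide 1 and 16.79 to 17.44 on slides 2 and 3. Probes well above background made up 55.3 to 70.9% of each array. The highest share was that of Tat−/Meth replicate 5, against 56.4 to 60.2% on the other 4 Tat−/Meth arrays. On that array 6 dim channel genes (Cacna1b, Cacna1c, Cacna1f, Cacng7, Cacng8 and Scn7a) read more than 1 log2 unit above the highest of the other 4, and none read more than 1 below the lowest. The counts of channel genes that passed in comparisons with Tat−/Meth are therefore also given without it.

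Voltage-gated calcium channels open when a neuron depolarises and let in calcium, which triggers transmitter release, gene transcription and further firing. Their pore is an alpha1 subunit (Cacna1 genes), and beta subunits (Cacnb) and alpha2delta subunits (Cacna2d) bring it to the membrane and tune it. The gamma genes (Cacng) include a muscle channel subunit and the TARPs, which mainly escort AMPA glutamate receptors. Voltage-gated sodium channels carry the upstroke of the action potential, with an alpha pore (Scn with the letter a) and beta subunits (Scn with the letter b) that also act in cell adhesion. In the striatum, L-type calcium channels and the sodium channel partner Scn4b are known for shaping the firing of the medium spiny projection neurons.

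All levels below are log2 of the background-subtracted signal after scaling each array to its 75th percentile, and all differences are log2 differences between group means, first group minus second, with the standard error (SE) from limma. One probe, the brightest, stands for a gene, and levels of different probes are not compared. Of the 39 genes, 33 were well above background on all 20 arrays. The test was made on the 35 genes whose mean reached 6 log2 units in at least 1 group. The other 4 were Cacna1b, the N-type pore, well above background on 10 arrays, Cacna1f, an L-type pore known from the retina, on 1, and Scn7a, a sodium sensor, and Scn10a, a pore of sensory neurons, on 0. No probe was matched to Scn9a. Among the 35 tested genes the spread between arrays of a group (SD) ran from 0.07 to 0.54, with a median of 0.18. A gene passed at a Benjamini–Hochberg adjusted *p* under 0.05 over all 15102 genes tested. Because RNA came from whole tissue, fewer cells that express a channel and less of its RNA per cell cannot be told apart.

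In Tat−/Meth vs. Tat−/Sal, which sets the 7 days of Meth against saline in mice without Tat, 10 of the 35 channel genes passed. Of these, 3 were higher and 7 lower. The calcium channel genes Cacng5, Cacna2d2 and Cacna1a were higher. Cacng6, Cacnb4 and Cacna1h and the sodium channel genes Scn8a, Scn11a, Scn3b and Scn4a were lower. Of all genes tested, 50.2% passed, 35% higher and 15.3% lower, and the median difference was −0.05 over the 35 genes and 0.14 over all genes. In Tat+/Meth vs. Tat−/Meth, which asks what Tat did in Meth-treated mice, 14 passed, 6 higher and 8 lower, where 54.4% of all genes passed, 16% higher and 38.5% lower, and the median difference was 0.04 over the 35 genes and −0.15 over all genes. Both comparisons use the same 5 Tat−/Meth arrays, so their values are given side by side and neither counts as support for the other. Only Cacng6 also exceeded a 2-fold change, in both comparisons, where 6.85% and 7.22% of all genes did.

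**Figure D1:**
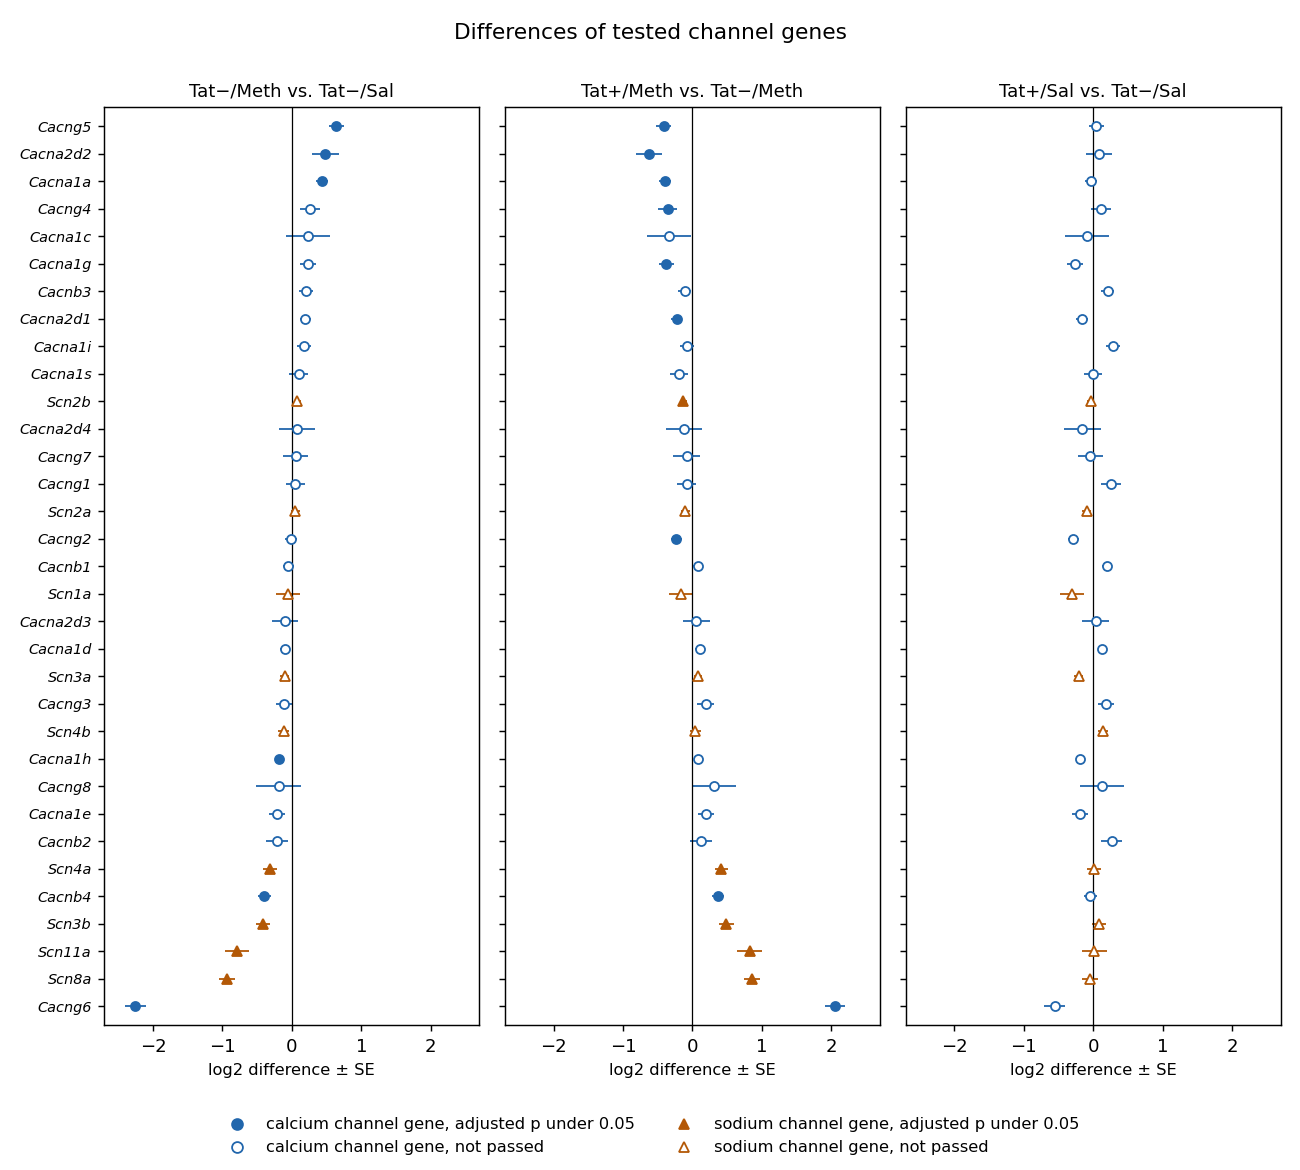
Log2 difference ± SE of 33 of the 35 tested channel genes (rows, ordered by the first panel) in 3 comparisons, with calcium channel genes as circles, sodium channel genes as triangles and filled symbols for an adjusted *p* under 0.05. Cacng6 lies at −2.25 in Tat−/Meth vs. Tat−/Sal and at 2.05 in Tat+/Meth vs. Tat−/Meth, and no symbol is filled in Tat+/Sal vs. Tat−/Sal.

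Cacng6, a gamma gene related to the skeletal muscle calcium channel subunit, had the largest difference of the family in both comparisons. Its levels in Tat−/Sal were 8.70, 8.52, 8.49, 8.56 and 8.71, and in Tat−/Meth 6.31, 6.14, 6.16, 6.03 and 7.07. In Tat+/Sal they were 8.16, 8.17, 8.20, 7.66 and 8.02, and in Tat+/Meth 8.50, 8.38, 8.43, 8.26 and 8.40. All 5 Tat−/Meth arrays lay below the lowest array of every other group, and replicate 5 was the highest of them. The difference of Tat−/Meth from Tat−/Sal was −2.25 ± 0.15 (4.77-fold, limma adjusted *p* = 8.2e-10), and −2.44 without replicate 5. Between Tat+/Meth and Tat−/Meth it was 2.05 ± 0.15 (limma adjusted *p* = 2.8e-09), and 2.23 without that array. The probe was well above background on all 20 arrays. Cacng1, the gamma subunit of the skeletal muscle channel itself, differed by 0.05 in Tat−/Meth vs. Tat−/Sal and did not pass. Of 7 muscle marker genes, 3 were well above background on all arrays, Myh6 on 18, Ckm on 1, and Myh1 and Mylpf on none. Acta1 (skeletal muscle actin) passed as higher in Tat−/Meth vs. Tat−/Sal, at 0.29 ± 0.09, and the summed level of the list ran from 12.59 to 13.04 in Tat−/Sal and from 12.76 to 13.11 in Tat−/Meth.

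Cacng6 lies on chromosome 7 beside Cacng8 and Cacng7, with no other protein-coding gene between them. The 250 bases before each annotated start site are shown because Cacng6 passed and its neighbours did not. The sequences are RefSeq's for GRCm38.p6 and all are on the plus strand. The letters of a TATA box (TATAAA), of a GC box (GGGCGG) and of a CCAAT box (CCAAT) were each searched on both strands, so that matches may share bases, and matches are in capitals.
Cacng6 (chr7:3424412-3424661): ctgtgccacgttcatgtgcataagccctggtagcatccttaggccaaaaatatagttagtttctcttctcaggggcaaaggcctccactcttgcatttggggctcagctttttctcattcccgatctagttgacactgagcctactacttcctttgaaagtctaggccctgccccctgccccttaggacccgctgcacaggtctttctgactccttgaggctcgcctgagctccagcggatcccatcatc
Cacng7 (chr7:3332575-3332824): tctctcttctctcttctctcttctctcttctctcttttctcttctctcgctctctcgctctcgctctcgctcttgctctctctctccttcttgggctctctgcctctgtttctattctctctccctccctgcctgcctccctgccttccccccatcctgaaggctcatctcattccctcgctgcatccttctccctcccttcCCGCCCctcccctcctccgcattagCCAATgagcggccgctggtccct
Cacng8 (chr7:3393792-3394041): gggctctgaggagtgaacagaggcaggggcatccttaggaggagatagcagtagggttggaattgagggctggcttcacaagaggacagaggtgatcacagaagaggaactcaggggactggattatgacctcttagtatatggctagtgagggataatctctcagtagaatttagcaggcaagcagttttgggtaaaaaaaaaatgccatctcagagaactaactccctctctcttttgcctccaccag
The windows of Cacng6 and Cacng8 hold none of these letters, and that of Cacng7 holds GGGCGG on the minus strand and CCAAT. The Cacng8 window has 0 CG pairs and ends in a pyrimidine-rich stretch and AG. Whether transcription starts at these annotated sites was not tested. Of all 32851 promoter windows of this length, 12.4% hold TATAAA, 32.7% GGGCGG and 33.8% CCAAT, and of the 41 windows of 30 channel genes 4.88%, 36.6% and 24.4% do. Cacng7 and Cacng8, which encode TARPs, did not pass in Tat−/Meth vs. Tat−/Sal, where they differed by 0.05 and −0.19 (Cacng7 had no value on 1 Tat+/Meth array, an outlier spot). Tat−/Meth replicate 5 read 8.49 for Cacng7 against 7.17 to 7.37 on the other 4, and 8.03 for Cacng8 against 6.03 to 6.18. Without it Cacng8 passed as lower, at −0.58 ± 0.21 (limma adjusted *p* = 0.027).

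Among the other TARPs, Cacng5 moved the other way from Cacng6. Its levels were 9.01, 8.89, 8.89, 9.14 and 8.79 in Tat−/Sal and 9.62, 9.78, 9.38, 9.45 and 9.69 in Tat−/Meth. They were 9.32, 9.08, 8.75, 8.79 and 8.99 in Tat+/Sal and 8.92, 9.09, 9.36, 9.25 and 9.21 in Tat+/Meth. Every Tat−/Meth array lay above every array of the other groups, by a narrow margin over Tat+/Meth. The difference from Tat−/Sal was 0.64 ± 0.11 (limma adjusted *p* = 0.00011), and in Tat+/Meth vs. Tat−/Meth −0.42 ± 0.11 (limma adjusted *p* = 0.0037). Cacng2 (stargazin), the founding TARP, and Cacng4 did not pass in Tat−/Meth vs. Tat−/Sal but were lower in Tat+/Meth than in Tat−/Meth, by −0.23 ± 0.08 and −0.36 ± 0.14. Cacng4 lies directly beside Cacng5 on chromosome 11 and Cacng1 directly beside Cacng4. Cacng3 passed in neither comparison, at −0.11 and 0.19.

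Of the 8 tested calcium channel pores, 1 was higher and 1 lower in the Tat−/Meth group than in Tat−/Sal. The P/Q-type pore Cacna1a, the main channel of transmitter release, was the higher one. It read 11.43, 11.58, 11.64, 11.75 and 11.95 in Tat−/Sal and 12.11, 11.97, 12.23, 12.08 and 12.17 in Tat−/Meth. Levels in Tat+/Sal were 11.72, 11.57, 11.88, 11.46 and 11.55 and in Tat+/Meth 11.72, 11.70, 11.74, 11.63 and 11.80. The Tat−/Meth arrays lay above all others, and the differences were 0.44 ± 0.09 and, for Tat+/Meth vs. Tat−/Meth, −0.39 ± 0.09. A second probe of the gene moved oppositely, as given with the probe values further on. The T-type pores serve low-threshold and burst firing. Cacna1h was lower in the Tat−/Meth group than in Tat−/Sal, 12.69 to 12.96 against 12.96 to 13.10, with the groups all but meeting, by −0.19 ± 0.06 (limma adjusted *p* = 0.013). Cacna1g was lower in Tat+/Meth than in Tat−/Meth, by −0.38 ± 0.11 (limma adjusted *p* = 0.0083), with 8.24 to 8.66 against 8.55 to 8.93. A second Cacna1g probe went the other way, with means of 8.31 in Tat+/Meth and 8.17 in Tat−/Meth. The Cacna1g call was lost with the mean over probes and with no scaling. Cacna1i differed by 0.17 and −0.08 and passed in neither.

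The L-type pores Cacna1c, Cacna1d and Cacna1s passed in neither comparison. Cacna1d, the L-type pore that opens at more negative voltages, read 8.74 to 8.93 in Tat−/Sal and, among Tat−/Meth mice, 8.65 to 8.86, with 8.82 to 9.07 in Tat+/Sal and, among Tat+/Meth mice, 8.67 to 9.03, and the 4 ranges overlap. Cacna1c, the most widely expressed L-type pore of brain and heart, was dim, well above background on 16 of 20 arrays. In Tat−/Meth it read 5.55, 5.48, 5.73 and 5.71 on 4 arrays and 7.81 on replicate 5, and elsewhere from 5.33 to 6.18. The R-type pore Cacna1e read 6.13, 6.17, 6.26, 6.30 and, on replicate 5, 6.74 in Tat−/Meth, against 6.48 to 6.63 in Tat−/Sal. With all arrays it differed by −0.22 and did not pass, and without replicate 5 it passed at −0.32 ± 0.10 (limma adjusted *p* = 0.0098). Cacna1b was not tested. It read 4.70 to 5.25 in Tat−/Sal and 4.44 to 5.28 on 4 Tat−/Meth arrays, with 7.12 on replicate 5.

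Of the 4 beta genes of calcium channels, Cacnb4, whose loss causes the lethargic mouse, was lower in Tat−/Meth. It read 13.39, 13.51, 13.51, 13.45 and 13.45 in Tat−/Sal and 13.17, 13.19, 13.10, 13.08 and 12.78 in Tat−/Meth. In Tat+/Sal it read 13.55, 13.51, 13.42, 13.22 and 13.40, and in Tat+/Meth 13.61, 13.53, 13.19, 13.53 and 13.29. All Tat−/Meth arrays lay below all saline arrays, and the highest of them met the lowest Tat+/Meth array at 13.19. The differences were −0.40 ± 0.09 (limma adjusted *p* = 0.0012) and, in Tat+/Meth vs. Tat−/Meth, 0.36 ± 0.09 (limma adjusted *p* = 0.0020). Cacnb1, Cacnb2 and Cacnb3 differed by −0.05, −0.22 and 0.20 in Tat−/Meth vs. Tat−/Sal and did not pass.

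Of the 4 alpha2delta genes, which raise the number of channels at the membrane, Cacna2d2 was higher in Tat−/Meth than in Tat−/Sal by 0.48 ± 0.19 (limma adjusted *p* = 0.042). Its levels were 13.31, 12.76, 12.89, 12.91 and 12.10 in Tat−/Sal and 13.53, 13.16, 13.29, 13.43 and 12.97 in Tat−/Meth, and the groups overlapped. The call was lost in 8 of the 20 fits that each left out 1 array. A second probe of Cacna2d2 moved oppositely, as given with the probe values further on. Between Tat+/Meth and Tat−/Meth the brightest probe of Cacna2d2 differed by −0.62 ± 0.19 (limma adjusted *p* = 0.010) and Cacna2d1 by −0.23 ± 0.08 (limma adjusted *p* = 0.027). Cacna2d3 read 15.29, 15.35, 15.37 and 15.20 on Tat−/Meth replicates 2 to 5 and 13.94 on replicate 1, below all other arrays, which ran from 14.95 to 15.37. Cacna2d3 and Cacna2d4 passed in neither comparison.

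Among sodium channel pores of the brain, Scn8a, the channel dense at the axon initial segment and at nodes of Ranvier, was the only one that passed on its brightest probe. It read 12.68, 12.63, 12.26, 12.78 and 12.42 in Tat−/Sal and 11.35, 11.73, 11.47, 11.71 and 11.84 in Tat−/Meth. In Tat+/Sal it read 12.44, 12.46, 12.43, 12.72 and 12.51, and in Tat+/Meth 12.59, 12.28, 12.63, 12.65 and 12.22. The Tat−/Meth arrays lay below all others. The difference from Tat−/Sal was −0.94 ± 0.12 (1.91-fold, limma adjusted *p* = 2.9e-06), and it reached −1.01, past 2-fold, without Tat−/Sal replicate 3. The value for Tat+/Meth vs. Tat−/Meth was 0.85 ± 0.12 (limma adjusted *p* = 6.9e-06). Scn1a, Scn2a and Scn3a, the other pores of central neurons, differed by −0.05, 0.05 and −0.10 in Tat−/Meth vs. Tat−/Sal. Their values in Tat+/Meth vs. Tat−/Meth were −0.17, −0.10 and 0.08, and none passed on its brightest probe. Dimmer probes of these genes read otherwise, as given with the probe values further on.

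Sodium pores known mainly from other tissues were also measured. Scn11a, known from sensory neurons of pain, read 8.38, 8.59, 8.59, 8.60 and 8.48 in Tat−/Sal and 7.38, 7.56, 8.13, 8.04 and 7.59 in Tat−/Meth. It read 8.52, 8.51, 8.93, 8.30 and 8.45 in Tat+/Sal and 9.04, 8.45, 8.18, 8.97 and 8.15 in Tat+/Meth. The Tat−/Meth arrays again lay below all others, with a gap of a few hundredths to the lowest Tat+/Meth array. The differences were −0.79 ± 0.18 (limma adjusted *p* = 0.0013) and 0.82 ± 0.18 (limma adjusted *p* = 0.00078). Scn4a, the skeletal muscle pore, was lower in the Tat−/Meth group than in Tat−/Sal by −0.31 ± 0.10 (limma adjusted *p* = 0.011) and higher in Tat+/Meth mice than in Tat−/Meth by 0.42 ± 0.10 (limma adjusted *p* = 0.0014). Its Tat−/Meth range, 7.44 to 7.87, overlapped that of Tat−/Sal, 7.61 to 8.18, and not that of Tat+/Meth, 7.93 to 8.18.

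Of the 4 sodium beta genes, Scn3b was lower in Tat−/Meth. It read 13.18, 13.20, 13.23, 13.16 and 13.26 in Tat−/Sal and 12.72, 12.84, 12.89, 12.91 and 12.58 in Tat−/Meth. It read 13.08, 13.17, 13.82, 13.21 and 13.16 in Tat+/Sal and 13.31, 13.28, 13.33, 13.34 and 13.12 in Tat+/Meth. No Tat−/Meth array reached any other group, and Tat+/Sal replicate 3 stood above all the rest. The differences were −0.42 ± 0.11 (limma adjusted *p* = 0.0035) and 0.49 ± 0.11 (limma adjusted *p* = 0.00089). Scn4b, the beta subunit linked to resurgent sodium current and abundant in striatal projection neurons, read 16.98 to 17.24 in Tat−/Sal and, among Tat−/Meth mice, 16.69 to 17.09, with 17.16 to 17.42 in Tat+/Sal and, among Tat+/Meth mice, 16.92 to 17.10, and passed in neither comparison. Scn2b was lower in Tat+/Meth than in Tat−/Meth by −0.13 ± 0.05 (limma adjusted *p* = 0.038).

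**Figure D2:**
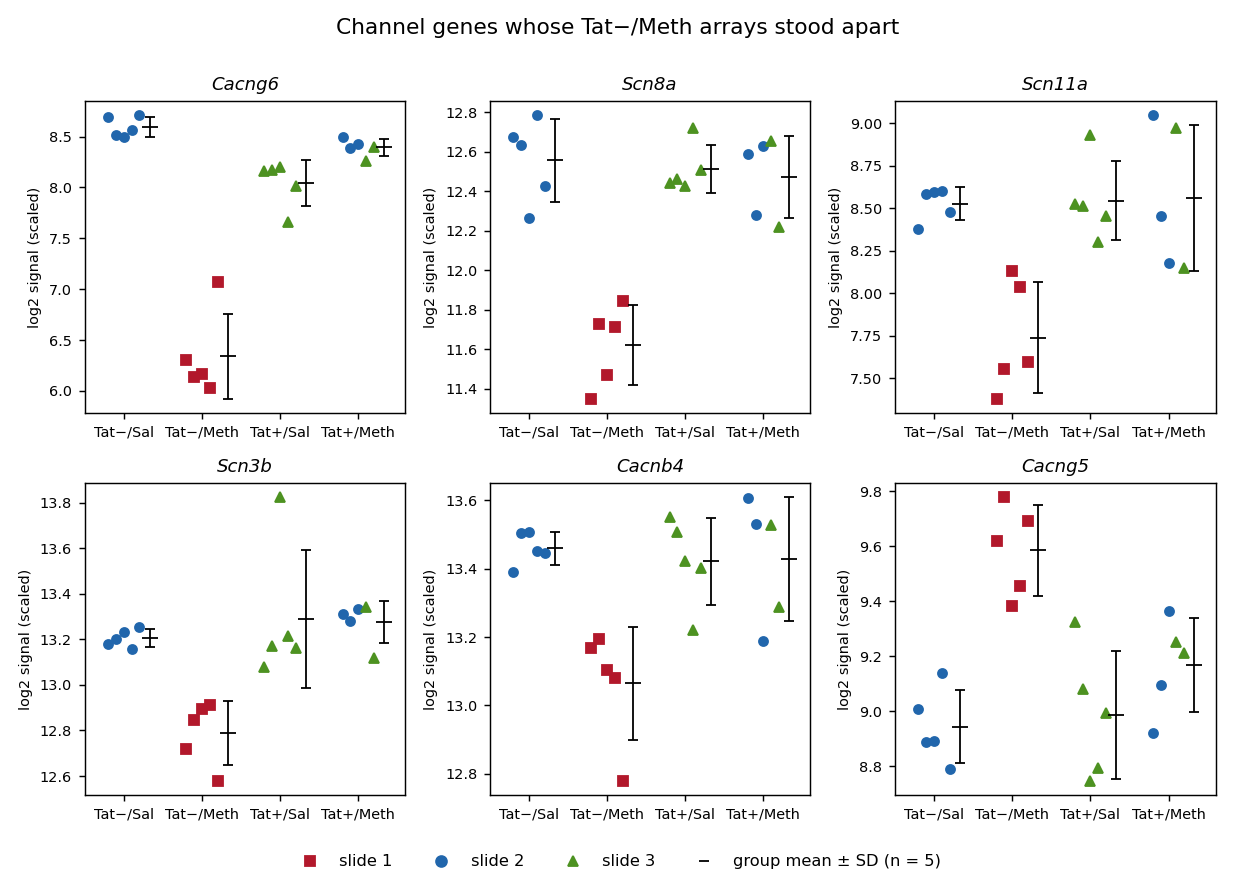
Scaled log2 signal of 6 channel genes on each of the 20 arrays by group, with symbols for the slide and bars for the group mean ± SD (n = 5). The Tat−/Meth arrays, all on slide 1, lie below all Tat−/Sal arrays for Cacng6, Scn8a, Scn11a, Scn3b and Cacnb4 and above them for Cacng5.

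In 8 of the 35 genes the Tat−/Meth and Tat−/Sal arrays did not overlap, where 36.2% of all genes tested did not. The same held for 8 genes between Tat+/Meth and Tat−/Meth, where 38.0% of all genes did not. Cell type markers passed in several lists in Tat−/Meth vs. Tat−/Sal, where 35% of all genes were higher and 15.3% lower. Of 10 striatal projection neuron markers 2 were lower, and of 5 microglial markers 1. Of 6 oligodendrocyte markers 1 was higher, and of 4 endothelial markers 1 was higher and 1 lower. Of 5 astrocyte markers, Aldh1l1, Gja1 and Slc1a3 were higher in Tat−/Meth than in Tat−/Sal and none was lower. The summed level of these 5 ran from 15.31 to 15.60 in Tat−/Meth and from 15.16 to 15.23 in Tat−/Sal. It ran from 15.05 to 15.20 in Tat+/Sal and from 15.08 to 15.25 in Tat+/Meth. All 5 were well above background on all arrays. Of 5 tested thalamic and hypothalamic genes Hcrt and Tcf7l2 were lower and Prkcd higher in Tat−/Meth than in Tat−/Sal, with summed levels of 10.53 to 11.24 and 10.49 to 11.10, and Pmch was well above background on 7 arrays. Of 3 tested cerebellar genes Pcp2, known from Purkinje cells, was lower, at −0.89 ± 0.17, with summed levels of 11.97 to 12.64 in Tat−/Meth and 11.97 to 12.24 in Tat−/Sal. The part of these cell types and of muscle in the channel differences was not tested. Without Tat−/Meth replicate 5, 34 channel genes were tested and 14 passed in Tat−/Meth vs. Tat−/Sal, 5 higher and 9 lower, where 50.3% of all genes did, with Cacna1g and Cacna2d1 added as higher and Cacna1e and Cacng8 as lower. Then 16 passed in Tat+/Meth vs. Tat−/Meth, 8 in each direction, where 55% of all genes did, with Cacna1e, at 0.30 ± 0.10, and Cacng8, at 0.70 ± 0.21, added as higher.

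Several channel genes had more than 1 probe, and the choice of probe decided the direction of 2 of them. The 39 genes had 56 probes, 13 genes had more than 1 tested probe, and in 9 of these the probes differed in sign in Tat−/Meth vs. Tat−/Sal. For Cacna1a the brightest probe rose from a mean of 11.67 to 12.11, while the other fell from 10.80 to 10.19, by −0.62 ± 0.10 (limma adjusted *p* = 5.4e-05). For Cacna2d2 the brightest probe rose from 12.79 to 13.28 and the other fell from 10.28 to 9.57, by −0.71 ± 0.10. Both probes passed in opposite directions in these 2 genes, and again in Tat+/Meth vs. Tat−/Meth. For Scn8a only the brightest probe was lower, and the other 2 differed by 0.42 ± 0.24 and 0.05 ± 0.14 and did not pass. With the mean over its probes Scn8a differed by −0.16 and did not pass. A dimmer probe of Scn1a was higher in Tat−/Meth than in Tat−/Sal, by 0.51 ± 0.18, as was 1 dimmer probe each of Scn2a, by 0.21 ± 0.07, and Scn3a, by 0.26 ± 0.10. The Tat+/Meth and Tat−/Meth means of these probes were 8.11 and 8.90 for Scn1a, 12.99 and 13.27 for Scn2a, and 12.80 and 13.18 for Scn3a. The probes of each of these 6 genes name the same RefSeq transcript, and where in it they lie was not analysed here.

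**Figure D3:**
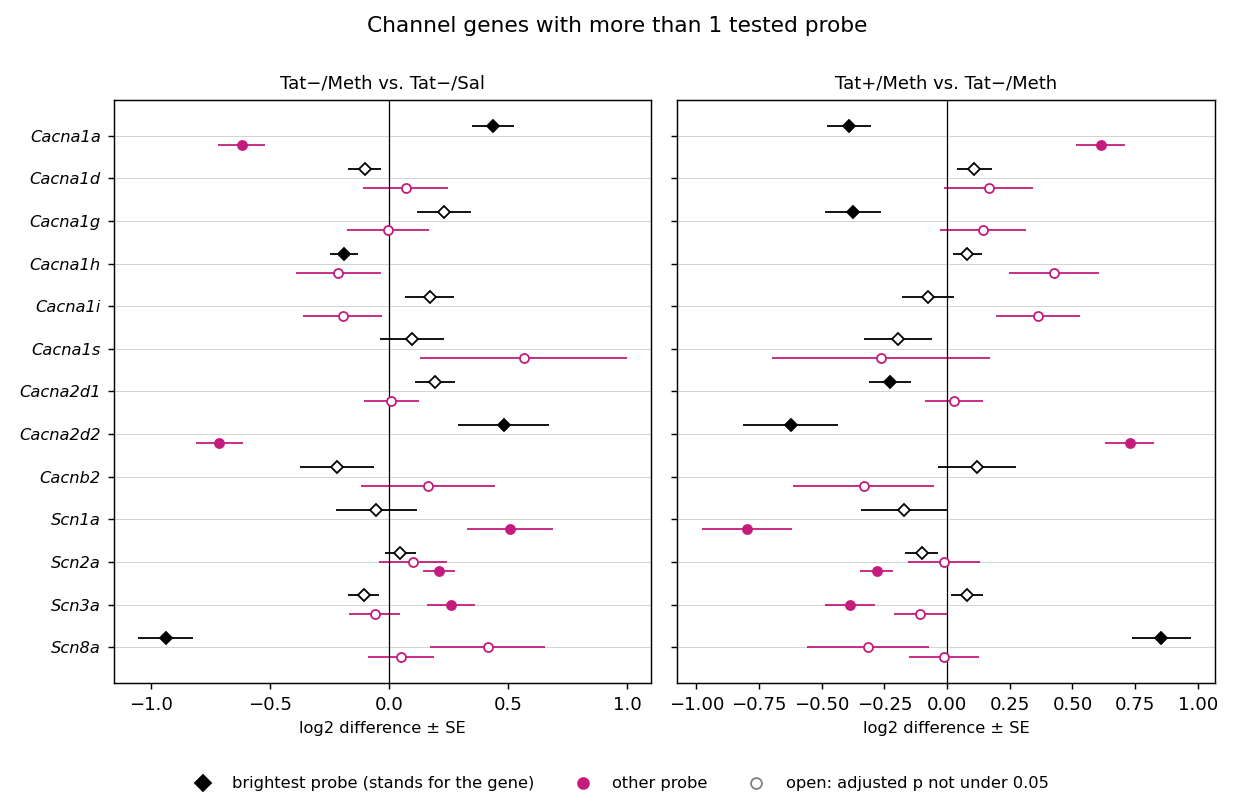
Log2 difference ± SE of each tested probe (black diamonds, the brightest probe of the gene; pink circles, its other probes) for the 13 channel genes with more than 1 tested probe, in 2 comparisons, filled where the adjusted *p* over all probes was under 0.05. For Cacna1a and Cacna2d2 filled symbols lie on both sides of 0, and for Scn8a the brightest probe alone is filled.

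The interaction, which is the Meth difference among Tat+ mice minus that among Tat− mice, passed in 11 of the 35 genes, 8 positive and 3 negative, where 36% of all genes passed, 12.4% positive and 23.6% negative. It contains the Tat−/Meth arrays too. It was 2.61 ± 0.21 for Cacng6, the sole channel gene past 2-fold, where 7.44% of all genes were. It was 0.90 ± 0.16 for Scn8a, 0.81 ± 0.25 for Scn11a, and 0.40 for each of Scn3b, Cacnb4 and Scn4a. Scn3a and Cacna1h passed at 0.29 ± 0.09 and 0.27 ± 0.08. The negative ones were Cacna2d2 at −0.71 ± 0.27, Cacng5 at −0.46 ± 0.16 and Cacna1a at −0.36 ± 0.12. The other probes of Cacna2d2 and Cacna1a passed in the opposite direction, at 0.83 ± 0.14 and 0.64 ± 0.14. With the mean over its probes Scn3a did not pass. A dimmer Scn3a probe had means of 12.92 in Tat−/Sal, 13.18 in Tat−/Meth, 12.63 in Tat+/Sal and 12.80 in Tat+/Meth. Scn3b and Cacna2d2 lay close to the limit, with limma adjusted *p* values of 0.045 and 0.047, and of the 20 fits that each left out 1 array, they missed it in 16 and 15. Cacna1a missed it in 6 of these fits, Scn4a in 4 and Cacng5 in 3. Without Tat−/Meth replicate 5, 11 genes also passed, where 38.1% of all genes did, with Cacna1e among them, at 0.50, and Scn3b not.

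The split between higher and lower depended on how the arrays were brought to one scale. In Tat−/Meth vs. Tat−/Sal it was 3 higher and 7 lower with the 75th percentile, 3 and 7 with quantile normalization, 2 and 3 with the median, and 0 and 21 with no scaling. Of all genes 50.2%, 52.1%, 28.1% and 48% passed under these settings, and with no scaling 98.3% of the genes that passed were lower. For Tat+/Meth vs. Tat−/Meth the 4 settings gave 6 and 8, 7 and 8, 3 and 5, and 16 and 0, and in the interaction 8 and 3, 6 and 2, 2 and 0, and 15 and 0. Of all genes 54.4%, 56.5%, 39.3% and 37.1% passed in the former and 36%, 37.8%, 17% and 39.4% in the latter. The median of all genes in Tat−/Meth vs. Tat−/Sal was 0.14, 0.15, 0.26 and −0.29. Relative to that median Cacng6 and Scn8a were lower and Cacng5 higher in Tat−/Meth under all 4 settings, although Cacng5 did not pass with no scaling.

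**Figure D4:**
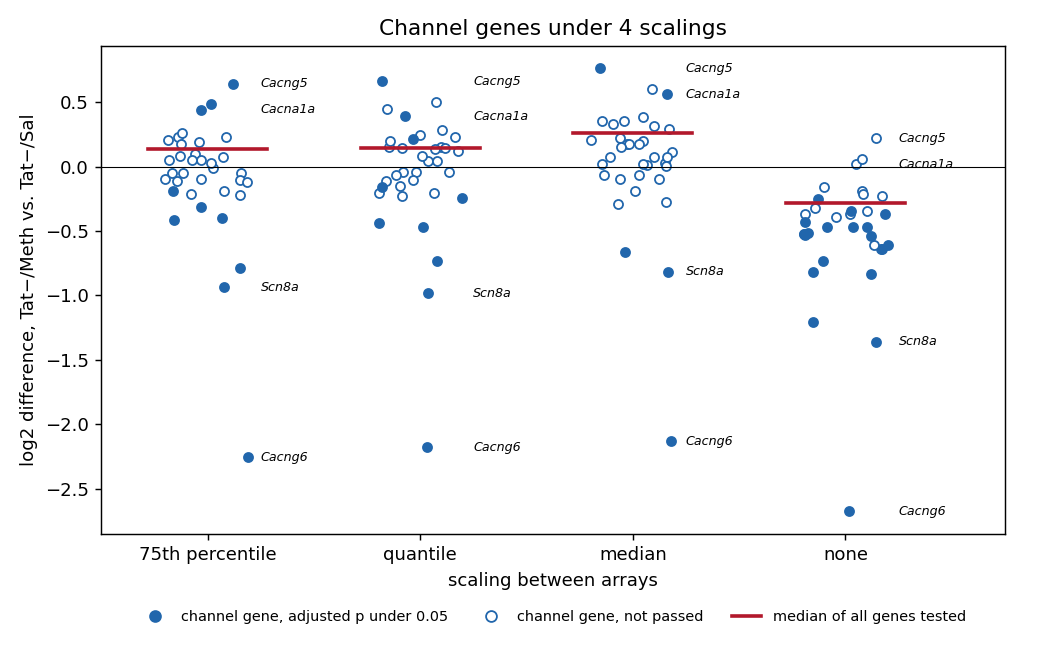
Log2 difference of the tested channel genes in Tat−/Meth vs. Tat−/Sal (points, 35 or, with no scaling, 34, filled where the adjusted *p* was under 0.05) under 4 ways of scaling the arrays, with a red line for the median of all genes tested and 4 genes labelled. With no scaling the line drops to −0.29 and 21 channel genes pass as lower, and Cacng6 lies lowest under all 4.

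In the 3 comparisons without the Tat−/Meth group no channel gene passed. For Tat in the saline groups (Tat+/Sal vs. Tat−/Sal), which by the methods also had the Meth challenge, 1.42% of all genes passed. There 9 of the 35 channel genes had an unadjusted *p* under 0.05 in limma, where 20.5% of all genes did. The smallest adjusted *p* among them were those of Cacng6 at 0.062, Cacng2 at 0.071, Cacna1h at 0.091 and Scn3a at 0.093. All 4 were lower in Tat+/Sal without overlap, where 4.85% of all genes did not overlap and 3.01% were lower in that way. The Cacng6 arrays ran from 7.66 to 8.20 against 8.49 to 8.71, a difference of −0.55 ± 0.15. Cacng2 ran from 11.93 to 12.35 against 12.42 to 12.70, a difference of −0.29 ± 0.08, and Cacna1h from 12.79 to 12.93 against 12.96 to 13.10, a difference of −0.19 ± 0.06. For Scn3a the arrays ran from 12.78 to 12.98 against 13.01 to 13.20, a difference of −0.21 ± 0.06. Cacna1i and Cacnb1 differed upwards, by 0.28 ± 0.10 and 0.20 ± 0.07, with overlap.

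These 2 groups lie on different slides, and Tat+/Meth alone spans both. Within Tat+/Meth the slide 3 arrays lay below the slide 2 arrays for Cacng2, 12.16 and 12.17 against 12.26 to 12.41, and for Cacna1h, 12.85 and 12.88 against 12.96 to 13.05. For Cacng6 and Scn3a the arrays of the 2 slides overlapped within Tat+/Meth. With the slide as a fixed block the differences were −0.45 ± 0.27 for Cacng6, −0.10 ± 0.13 for Cacng2, −0.06 ± 0.10 for Cacna1h and −0.19 ± 0.12 for Scn3a, and none passed. With the slide as a random block, for which the correlation within slides was estimated as negative, at −0.06, 8 channel genes passed, where 15.4% of all genes did. Leaving out Tat−/Meth replicate 5, an array in neither group, Cacng6 passed (limma adjusted *p* = 0.015).

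**Figure D5:**
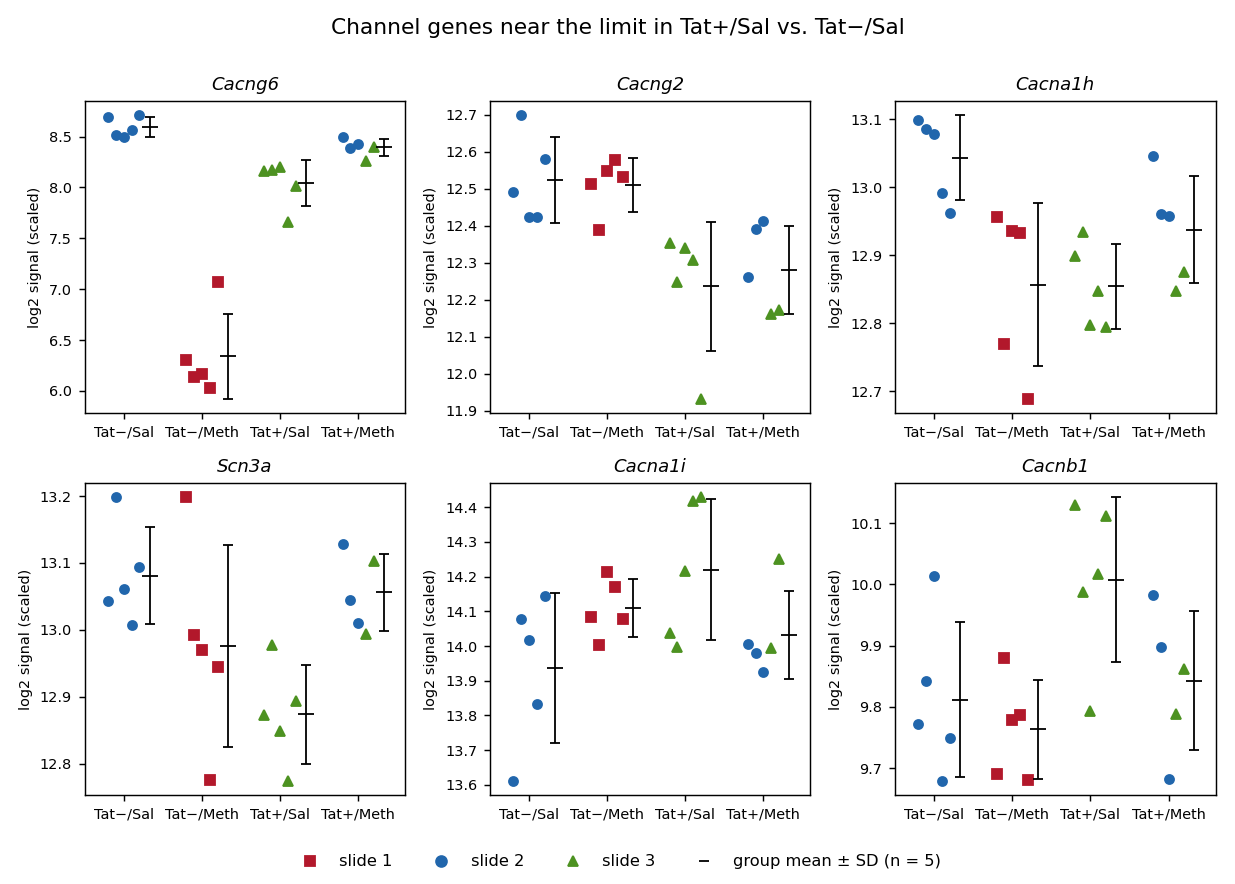
Scaled log2 signal on each of the 20 arrays by group for 6 channel genes near the limit in Tat+/Sal vs. Tat−/Sal, with symbols for the slide and bars for the group mean ± SD (n = 5). The Tat+/Sal arrays (slide 3) lie below the Tat−/Sal arrays (slide 2) for Cacng6, Cacng2, Cacna1h and Scn3a, and for Cacng2 and Cacna1h the 2 Tat+/Meth arrays on slide 3 also lie below the 3 on slide 2.

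For the 7 days of Meth against saline in mice with Tat (Tat+/Meth vs. Tat+/Sal), 0% of all genes passed. There 6 channel genes had an unadjusted *p* under 0.05 in limma, where 12.2% of all genes did. Cacng6, at 0.35 ± 0.15, and Scn3a, at 0.18 ± 0.06, were higher and Scn4b, at −0.22 ± 0.08, lower without overlap, where 2.28% of all genes did not overlap. Cacnb2 and Cacnb1 differed by −0.36 and −0.17 with overlap. For Tat+/Meth vs. Tat−/Sal, where 0% of all genes passed, 1 channel gene, Cacng2, had an unadjusted *p* under 0.05 in limma, where 7.79% of all genes did. It was lower without overlap, at −0.24 ± 0.08 (limma adjusted *p* = 0.64), where 1.68% of all genes did not overlap.

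Genes that work with these channels were read from 4 lists. Of all genes, 35% passed as higher and 15.3% as lower in Tat−/Meth vs. Tat−/Sal, the comparison of the counts below. Of 12 sodium channel partners, which cluster or modulate the pores, 6 were higher and 1 lower in the Tat−/Meth group than in Tat−/Sal, with a median of 0.19 beside 0.14 over all genes. Of 11 tested calcium channel regulators, such as calmodulins and RGK proteins, 2 were higher and 2 lower, none past 2-fold, with a median of 0.02, and in Tat+/Meth vs. Tat−/Meth Stac3, an adaptor of the muscle L-type channel, was lower at −1.11 ± 0.44 (limma adjusted *p* = 0.041). Of 13 tested genes of calcium release and extrusion, 3 were higher and 3 lower, with a median of −0.06. They held 2 plasma membrane calcium pumps past 2-fold in opposite directions, Atp2b3 at 1.03 ± 0.18 and Atp2b4 at −1.15 ± 0.15. Of 7 tested genes of other cation channels of the superfamily and their auxiliary proteins, such as Unc79, 2 were higher and 2 lower, with a median of 0.16. Catsper4, a sperm calcium channel pore, was lower at −2.51 ± 0.40 and well above background on 16 arrays. In the 3 comparisons without Tat−/Meth no gene of the 4 lists passed.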

How the data were processed

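RNA from 20 mouse brain samples was hybridised to one-colour Agilent arrays, 5 per group. The deposited values were spot intensities written by Feature Extraction 10.7.3.1, and the authors' processed signal was background-subtracted and not scaled between arrays. The deposited flags for control type, outliers and signal well above background, another kind of column with values of 0 or 1, were used as given, and saturated spots were kept. A deposited matrix of intensities, close to the background-subtracted signal plus a constant per array and of unstated normalization, served as an alternative (7831 of its values under 1 were set to 1).

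Control spots and 4278 outlier spots were left out and spots of a probe averaged, giving 55681 probes. RefSeq accessions gave symbols to 27656 of them. Log2 signals were scaled to each array's 75th percentile, and the brightest probe by its mean over 20 arrays stood for a gene. A gene with values from 3 or more arrays in every group and a group mean of 6 or more was tested with limma 3.58.1 in R 4.3.3 (1 mean per group, all 20 arrays, Benjamini–Hochberg adjustment over 15102 genes), in 5 comparisons and the interaction. Probe tests were adjusted over all probes tested. On simulated data for Tat−/Meth vs. Tat−/Sal with 15102 genes, 87% of 200 genes changed by 1 log2 unit were recovered and 13 unchanged genes were called. Alternatives covered scaling, background correction, filters, probes, slide, samples, test, limits, pairing and each array left out. Tables were handled in Python 3.11.15.

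Genes named were those past both limits, the 4 with the smallest adjusted *p* per direction and comparison, and the main pores and partners of forebrain neurons, 21 in all. Cacna2d1, Cacng2, Scn2b and Scn4a also passed and were added after their values were seen, and other genes are named to account for the family. Values of a few single genes are not reported here, while the counts include them. The genes and lists were chosen with earlier results of these data known. The number of arrays limits the precision, and *p* values measure the spread between these 20 samples, each from 1 mouse per the methods.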

Additional observations from a re-analysis of the deposited data

Results flagged for a closer look

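Of 100 sets of 5 arrays (25 channel genes in 4 groups), 14 held an array that stood far from the other 4, and chance alone flags about 1 in 20. The sets share the same 20 arrays and are not independent, so the 14 cannot be weighed against that rate. In Tat−/Meth these were Cacna1c at 7.81 (next array 5.73), Cacna1e at 6.74 (6.30) and Cacng6 at 7.07 (6.31), all high on replicate 5, Cacnb4 at 12.78 (13.08) and Scn4b at 16.69 (16.97), both low on replicate 5, and Cacna2d3 at 13.94 (15.20), low on replicate 1. In Tat+/Sal they were Scn3b at 13.82 (13.21) and Scn8a at 12.72 (12.51), which were high, and Cacng2 at 11.93 (12.25) and Cacng4 at 10.08 (10.49), which were low. In Tat−/Sal Cacna1e at 6.63 (6.52) and Scn2a at 14.46 (14.32) were high. In Tat+/Meth Cacna1i at 14.25 (14.01) was high and Scn3b at 13.12 (13.28) was low.

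The effect of Meth differed between Tat+ and Tat− mice, by limma's interaction term, in 11 of 35 channel genes, where it passed in 36% of all genes. The term was positive for Cacng6 (2.61), Scn8a (0.90), Scn11a (0.81), Cacnb4 (0.40), Scn3b (0.40), Scn4a (0.40), Scn3a (0.29) and Cacna1h (0.27). It was negative for Cacna2d2 (−0.71), Cacng5 (−0.46) and Cacna1a (−0.36). Other probes of Cacna2d2 and Cacna1a passed as positive, and Scn8a and Scn3a did not pass with the mean over their probes. The calls of Scn3b and Cacna2d2 were lost in 16 and 15 of the 20 fits that each left out 1 array. In all 11 the Tat−/Meth arrays, the only ones on slide 1, enter the term, so it cannot be told apart from the slide.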

How the results depend on the processing

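Counts below are of channel genes past the limit. With median scaling 5 passed in Tat−/Meth vs. Tat−/Sal, 8 in Tat+/Meth vs. Tat−/Meth and 2 in the interaction (28.1%, 39.3% and 17% of all genes). With no scaling 21 passed in the first (48%), and 3 exceeded 2-fold in each of the 3. With the mean over probes 6 passed in the first and 7 in the interaction (47.8% and 34%). With each array left out in turn the 3 counts ran from 9 to 14, 11 to 16 and 8 to 12. Of all genes 46.1 to 51.3%, 49.8 to 55.1% and 32.8 to 38.1% passed in these fits. In Tat−/Meth vs. Tat−/Sal 1 to 2 channel genes were past 2-fold. The share of all genes past 2-fold with no scaling or with an array left out is not given here. In Tat+/Sal vs. Tat−/Sal, where none passed, quantile normalization gave 1 (3.23%), the random slide block 8 (15.4%) and leaving out 1 array 0 to 1 (0 to 3.62%). A fit without the Tat−/Meth arrays, chosen after seeing the data, gave 1 there (0.415%). The methods' t-test without adjustment gave 7 there, 5 in Tat+/Meth vs. Tat+/Sal and also 5 between Tat+/Meth and Tat−/Sal (18.7%, 11% and 9.19%). The causes were not tested.

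Same-numbered arrays correlated at −0.18 to 0.36, above 0.1 in 7 of 25 pairs, so the numbers were not taken as pairs. The replicate block gave 11 and 13 in the Tat−/Meth comparisons, 13 in the interaction and 3 in Tat+/Sal vs. Tat−/Sal (52.6%, 56.3%, 38.4% and 3.66% of all genes).

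Of 1192 values of single genes, 1041 kept direction and call, 140 lost the call and 11 changed sign. With the mean over probes Cacna1a became −0.089, 0.11 and 0.14 and Cacna2d2 −0.11, 0.052 and 0.059 in the 2 comparisons with Tat−/Meth, in the order above, and in the interaction. In the same order Scn8a became −0.16, 0.18 and 0.23 and lost its call in all 3. The mean over probes also cost Cacna1h its call in Tat−/Meth vs. Tat−/Sal and Scn3a its call in the interaction. In Tat+/Meth vs. Tat−/Meth Cacna1g, Cacna2d1 and Cacng2 lost their calls with the mean over probes. With no scaling Scn2b became 0.21, Cacna2d1 0.11 and Cacng2 0.11 in Tat+/Meth vs. Tat−/Meth, and Cacna1a 0.13 and Cacng5 0.025 in the interaction. Of the 20 fits that each left out 1 array, the call in Tat+/Meth vs. Tat−/Meth was lost in 7 for Scn2b, 6 for Cacng4, 4 for Cacna2d1 and 2 for Cacng2. Dim genes, such as Cacna1b and Cacna1c, lie near background, which limits what can be read from them.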
